A study of Mus musculus with 48 samples.

Results

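The comparison of jejunum and ileum after Roux-en-Y gastric bypass (RYGB) rested on 8 of the 48 libraries of the series. These were the 3 libraries of jejunal villi and the 5 libraries of ileal villi that the labels assign to RYGB mice, and they were chosen by these labels alone. The same segments of sham-operated mice, 4 jejunum and 5 ileum libraries, showed how far each regional difference was present without the bypass. The 10585 genes with an Ensembl ID in both deposited tables were compared.

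All mice were male C57Bl6 mice with diet-induced obesity on a high fat diet. RYGB or sham surgery was followed by an elemental liquid diet, and the libraries belong to day 9. The mice were fasted overnight and killed at 10am, and villi were scraped off after ice-cold EDTA. A return to high fat diet is also mentioned in the labels without a date. Neither age nor the limb of the jejunum is given in the sources used here. Nothing there states which libraries came from the same mouse. By the library numbers in the labels, each jejunum library has an ileum library of the same surgery an equal step above it, such as 18 and 810. Of the ileum libraries of the same surgery, the one at this step correlated most with each jejunum library (0.343 to 0.539). These correlations are of deviations from the group means. Whether these pairs shared a mouse was not tested further, and no fit used them. The p values thus measure the spread between these libraries, taken as unpaired, and do not account for mice that may be shared.

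The bypass leads food from a reduced stomach straight into the jejunum, while bile and pancreatic juice drain through the excluded duodenum and meet it lower in the gut. The jejunum normally takes up most sugar, fat and amino acids, whereas the distal ileum reclaims bile acids and vitamin B12. This division is held by transcription factors of the epithelium such as Gata4 and by position along the gut.

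Values are CPM, the reads of a gene scaled to the same total in every library. Differences are jejunum minus ileum on the log2(CPM + 1) scale with the SE, so that positive values mean higher in the jejunum. A gene was called when the Benjamini-Hochberg adjusted p of limma was under 0.05 and the fold change at least 1.5. Segment and table cannot be told apart, since jejunum and ileum were deposited in separate tables, with separate ranges of library numbers in the labels (16 to 29 and 808 to 822). CPM is set within each library, so no scaling between tables entered, but an offset between tables would. By the lane in the labels, 7 of the 8 RYGB libraries of both segments were on lane 1, the exception being jejunum replicate 2. Whether equal lane numbers of the 2 segments mean the same sequencing run was not settled here. In sham, segment and lane cannot be told apart, since the jejunum was on lane 1 and the ileum on lanes 2 and 3. Each fit was repeated without each of its libraries in turn, 8 times for RYGB, 9 times for sham and 17 times for the difference of differences.

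The labels were examined with marker genes before the comparison. Gata4, which is normally silent in the distal ileum, stood at 187, 134 and 239 CPM in the RYGB jejunum and at 122, 105, 128, 183 and 131 CPM in the RYGB ileum. The groups overlapped, with a difference of 0.46 ± 0.22 (adjusted p = 0.318). Lactase (Lct), another proximal marker, stood at 1448, 1499 and 1640 CPM in the jejunum and at 3423, 3349, 3033, 3406 and 3121 CPM in the ileum. It was therefore lower in the jejunum, by 1.09 ± 0.15 on the log2 scale (adjusted p = 0.00516), and this call held without each single library. Fabp1 (0.18 ± 0.34, adjusted p = 0.848) and the sugar transporter gene Slc2a2 (0.27 ± 0.18, adjusted p = 0.483) overlapped between the segments.

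The distal markers were low. Slc10a2, the ileal bile acid transporter, stood at 1.6, 2.5 and 1 CPM in the jejunum and at 5.6, 11.1, 53.7, 1.6 and 7.1 CPM in the ileum, which overlapped (difference −1.90 ± 0.76, adjusted p = 0.227). Fabp6, the ileal bile acid binding protein and normally among the most abundant transcripts of the distal ileum, was listed in the ileum table only. It reached 41.5, 50.5, 47.4, 0.1 and 29 CPM after RYGB and 0, 11.2, 2.5, 22.9 and 0 CPM in sham. Fgf15, the hormone that ileal enterocytes release in response to bile acids, was likewise listed there only, at 9.1, 41.6, 33.1, 23.3 and 25 CPM after RYGB and 7.1, 31.4, 24.5, 4.1 and 0.8 CPM in sham. Pdx1, a factor of the proximal gut, was listed in the jejunum table only (1.5, 3.4 and 4.1 CPM after RYGB). In sham, Lct ranged from 3255 to 5395 CPM in the jejunum and from 4358 to 6704 CPM in the ileum, which overlapped (−0.32 ± 0.22, adjusted p = 0.351), so that the RYGB jejunum was below all other groups. The libraries labelled ileum thus held Gata4 and, in sham, lactase at levels that overlapped those of the jejunum, and little of the defining distal transcripts, so the data did not bear out a distal ileal origin. In what follows, jejunum and ileum name the libraries by their labels.

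**Figure D1:**
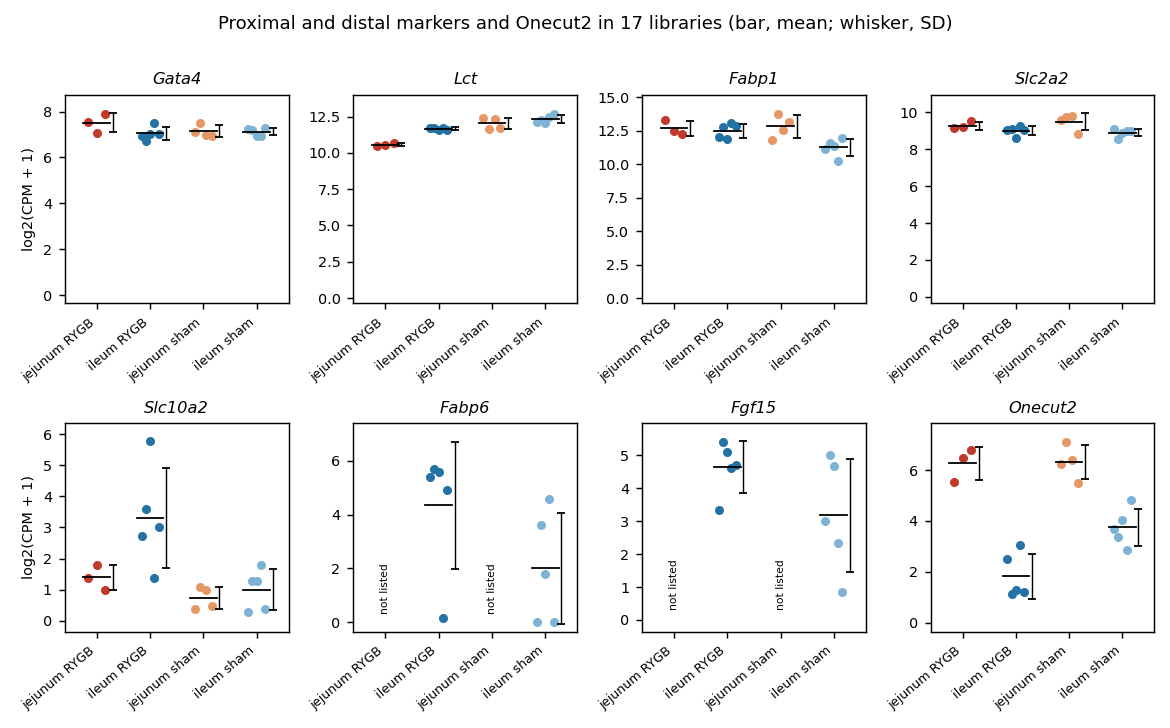
Level of 4 proximal markers (Gata4, Lct, Fabp1, Slc2a2), 3 distal markers (Slc10a2, Fabp6, Fgf15) and Onecut2 as log2(CPM + 1) on the vertical axis, with 1 point per library, a bar at the mean and a whisker of 1 SD for each of the 4 groups. Gata4 overlapped between the segments, Lct was lower in the RYGB jejunum, and Onecut2 separated both jejunum groups from both ileum groups.

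The depth is unknown, since total counts were not analysed here. In the 17 libraries, 12.92% to 17.61% of all CPM belonged to the 10 highest genes. The 8 epithelial markers (Epcam, Vil1, Cdh17 and others) were all listed and summed to 16352 to 19910 CPM in the RYGB jejunum and 13859 to 19843 CPM in the RYGB ileum. Of markers of other cells, 12 of 15 T cell, 6 of 15 B and plasma cell, 4 of 12 macrophage and dendritic, 2 of 13 pancreatic and 1 of 12 smooth muscle and stromal genes were in both tables, and no erythroid gene was. No gene of these lists was called between the RYGB segments. The summed macrophage and dendritic cell markers were 43.2 to 88 CPM in the RYGB jejunum and 88.6 to 133 CPM in the RYGB ileum. The summed B and plasma cell markers were 328 to 452 CPM in the RYGB jejunum and 209 to 304 CPM in the RYGB ileum. Most of this sum was Xbp1 (249 to 297 against 149 to 234 CPM) and Sdc1 (56.1 to 65.6 against 41.5 to 55.2 CPM), which epithelial cells also express. The immunoglobulin genes overlapped, with Igha at 3.1, 71.5 and 75.3 CPM in the jejunum against 2.5 to 19.7 CPM in the ileum and Ighm at 0.6 to 1.3 against 0.6 to 3.4 CPM. The part of these cells in the results below was not tested. In scraped tissue, fewer cells of a type and less RNA per cell cannot be told apart. The 7 genes of MHC class II presentation summed to 39 to 133 CPM in 7 of the 8 RYGB libraries and to 2937 CPM in ileum replicate 3. In sham they reached 4345 CPM in jejunum replicate 3 and 5267 and 4535 CPM in ileum replicates 3 and 4.

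After RYGB, 316 of the 10394 genes tested were called. The jejunum was higher for 164 of them (1.58% of those tested) and the ileum for 152 (1.46%). Counts of called list members below are to be read against these shares. For 314 of the 316 the 2 groups did not overlap. The call on the same libraries makes this likely, so it adds no support to the calls. The median difference of all genes was 0.01. The number of calls leaned on single libraries: 37 and 40 genes were called without jejunum replicate 2, the jejunum library of lane 2, and 185 and 176 without ileum replicate 3. The counts also fell by more than 1.5 times without jejunum replicate 3 (89 and 100) and without ileum replicates 1 (91 and 90) and 2 (82 and 83). For the ileum direction alone this was also seen without ileum replicate 5 (99).

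Of the genes higher in the jejunum, the largest differences were in Reg1, Onecut2, Oxct1, Tspan12, H2-Q10, Slc13a1, Papss2, Gml2, Cyp51 and Fdft1. Reg1 (chr6:78422711-78428667, plus strand; gene positions are from GENCODE M21 on GRCm38) encodes a secreted C-type lectin of the regenerating family. Its values were 40.2, 63 and 283 CPM in the jejunum and 0.5, 1.1, 0.7, 9.8 and 2 CPM in the ileum, so that every jejunum library lay above every ileum library. The difference was 5.02 ± 0.72 (adjusted p = 0.007), a 32.4-fold change. Onecut2, a transcription factor that marks the proximal small intestine, stood at 45, 88.9 and 108 CPM in the jejunum and at 4.7, 1.2, 1.4, 7.2 and 1.3 CPM in the ileum. Its difference of 4.43 ± 0.48 (adjusted p = 0.0018) was a 21.6-fold change, and of 19 segment identity factors tested it had the largest difference.

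Genes of ketone and sulfate use followed. Oxct1, the enzyme that makes ketone bodies usable as fuel, stood at 593, 693 and 634 CPM in the jejunum and at 41.6, 151, 40.6, 80.8 and 22 CPM in the ileum. The difference was 3.54 ± 0.49 (adjusted p = 0.00574), and the jejunum libraries varied little among themselves. Papss2, which makes the activated sulfate used by sulfotransferases, stood at 1103, 2548 and 2261 CPM in the jejunum and at 184 to 314 CPM in the ileum (3.02 ± 0.28, adjusted p = 0.00122). Slc13a1, a sodium-sulfate cotransporter, stood at 63.2, 300 and 232 CPM against 5.8, 39.1, 23.6, 18.8 and 12.9 CPM. Its call (3.21 ± 0.60, adjusted p = 0.020) was lost without jejunum replicate 2 or 3, and the difference lay between 2.77 and 3.89 over the 8 omissions. Tspan12, a tetraspanin, ranged from 8.2 to 46.4 CPM in the jejunum and from 1.1 to 1.9 CPM in the ileum (3.23 ± 0.44). H2-Q10, an MHC class Ib gene, ranged from 30.5 to 44.3 CPM against 0.9 to 6.2 CPM (3.23 ± 0.40). H2-Q10 belongs to a family of closely similar genes, between which reads may have been divided. The call of Gml2 (2.97 ± 0.61) was met in 3 of the 8 omissions, with differences from 2.58 to 3.40.

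**Figure D2:**
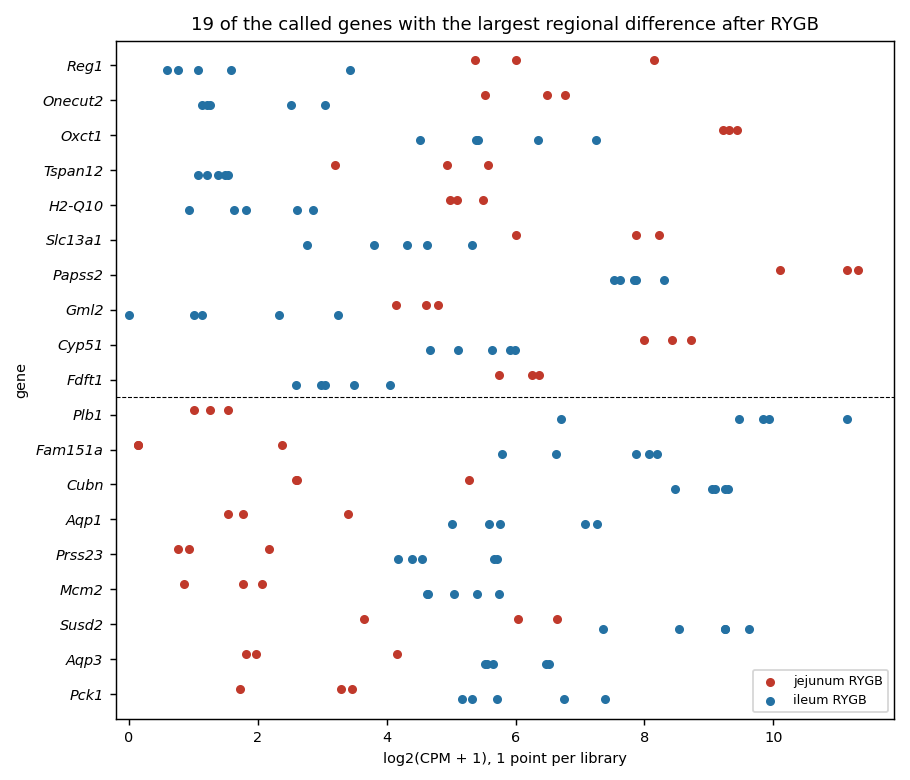
Called genes with large differences after RYGB, 10 higher in the jejunum and 9 in the ileum, with log2(CPM + 1) on the horizontal axis and 1 point per library (red, 3 jejunum; blue, 5 ileum). The groups did not overlap for any of these 19 genes, since the rule that chose them required it. The widest gap belonged to Plb1.

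Cyp51 and Fdft1 belong to cholesterol synthesis, the pathway from acetyl-CoA over mevalonate and squalene that is held under control by the sterol-sensing factor SREBP2. A list of 23 genes of this pathway and of its control was written after their values had been seen, so its counts are a description. Of 22 genes tested, 13 were higher in the jejunum and none was lower, against 1.58% of all genes. All 22 differences were positive, with a median of 1.68 against 0.01 for all genes. The number called stayed between 11 and 15 when single libraries were left out.

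Of the early enzymes, the HMG-CoA synthase Hmgcs1 stood at 444, 882 and 631 CPM in the jejunum and 72.5, 101, 164, 109 and 147 CPM in the ileum (2.45 ± 0.29, adjusted p = 0.00244). In the squalene steps, Fdft1 ranged from 52.4 to 81 CPM in the jejunum and from 5 to 15.5 CPM in the ileum (2.89 ± 0.31, adjusted p = 0.0018). Squalene epoxidase (Sqle) stood at 157, 238 and 322 CPM against 31.3, 39.6, 44.5, 20.3 and 40.4 CPM, a difference of 2.71 ± 0.29 (adjusted p = 0.00159). In the later sterol steps, Cyp51 stood at 253, 343 and 424 CPM against 33.5, 62.7, 48.9, 24.6 and 59.2 CPM (2.92 ± 0.31, adjusted p = 0.00157). Msmo1 had a difference of 2.47 ± 0.23, Mvd of the mevalonate branch one of 2.50 ± 0.37 and Lss, which closes the sterol rings, one of 1.99 ± 0.39 (adjusted p = 0.0264). The feedback regulator Insig1 (276, 173 and 214 CPM against 27.9 to 43.8 CPM, 2.56 ± 0.21) lay on the same side. For each gene of this paragraph, all jejunum libraries lay above all ileum libraries.

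Because these genes lay on the same side together, the promoters of 4 of them are shown (300 bases, 250 before to 50 after the start, RefSeq, GRCm38.p6), read on the strand of the gene. Capitals mark the sterol regulatory element TCACNCCAC in Hmgcs1 and the CCAAT box CCAATCA or its reverse complement in the others. These are chr13:119690101-119690400 (plus strand) for Hmgcs1, chr8:64733529-64733828 (minus) for Msmo1, chr8:122443373-122443672 (minus) for Mvd and chr10:76531355-76531654 (plus) for Lss.
Hmgcs1: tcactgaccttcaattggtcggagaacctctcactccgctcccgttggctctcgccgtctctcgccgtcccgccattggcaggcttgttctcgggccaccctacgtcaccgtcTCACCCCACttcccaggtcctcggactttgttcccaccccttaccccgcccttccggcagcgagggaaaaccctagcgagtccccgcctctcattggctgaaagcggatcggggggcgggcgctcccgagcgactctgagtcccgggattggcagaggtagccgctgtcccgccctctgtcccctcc
Msmo1: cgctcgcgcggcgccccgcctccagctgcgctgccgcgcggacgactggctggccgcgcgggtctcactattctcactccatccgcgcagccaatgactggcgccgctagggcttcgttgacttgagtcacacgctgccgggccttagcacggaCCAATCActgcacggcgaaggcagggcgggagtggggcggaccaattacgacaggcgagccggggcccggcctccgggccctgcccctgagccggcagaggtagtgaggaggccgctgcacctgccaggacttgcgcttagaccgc
Mvd: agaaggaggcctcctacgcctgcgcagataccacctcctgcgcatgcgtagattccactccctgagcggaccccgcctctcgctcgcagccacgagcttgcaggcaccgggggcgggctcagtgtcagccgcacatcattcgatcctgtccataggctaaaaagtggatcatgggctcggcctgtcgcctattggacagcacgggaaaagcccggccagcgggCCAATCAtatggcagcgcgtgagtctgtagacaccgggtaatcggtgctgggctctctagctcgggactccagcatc
Lss: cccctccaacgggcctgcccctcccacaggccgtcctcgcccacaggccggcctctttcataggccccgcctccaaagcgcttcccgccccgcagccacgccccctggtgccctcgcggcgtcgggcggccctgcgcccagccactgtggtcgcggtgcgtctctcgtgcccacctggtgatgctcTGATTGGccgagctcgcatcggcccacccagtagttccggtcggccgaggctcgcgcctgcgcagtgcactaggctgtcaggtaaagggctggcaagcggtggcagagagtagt

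Of the 23 genes of the list, 17 had a promoter in the RefSeq table. The motif TCACNCCAC was found on either strand in 1 of the 17 and in 1.44% of the 27025 genes of the table. The motif CCAATCA, whose letters include the pentamer CCAAT, was found in 11 of the 17 and in 9.00% of all genes. The pentamer CCAAT alone was found in 16 of the 17 and in 41.1% of all genes. A match is a run of letters and not a measured site.

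Of the genes higher in the ileum, large differences were found in Plb1, Fam151a, Cubn, Aqp1, Prss23, Mcm2, Susd2, Aqp3 and Pck1. Plb1 (chr5:32232708-32366520, plus strand), a brush border phospholipase that digests dietary lipids, stood at 1.9, 1.4 and 1 CPM in the jejunum and at 709, 921, 2256, 104 and 983 CPM in the ileum. It was close to absent from the jejunum and abundant in every ileum library, and the difference of −8.16 ± 0.76 (adjusted p = 0.00122) was the largest of the 316 called genes. Fam151a, whose role is little known, stood at 4.2, 0.1 and 0.1 CPM against 97.9, 268, 232, 54.4 and 293 CPM (−6.43 ± 0.65, adjusted p = 0.00145). Prss23, a serine protease, ranged from 0.7 to 3.5 CPM against 17.1 to 51.6 CPM (−3.62 ± 0.45, adjusted p = 0.00335). These 3 calls held in each of the 8 omissions.

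Cubn (chr2:13276338-13491813, minus strand) encodes cubilin, the receptor that takes up vitamin B12 bound to intrinsic factor. It stood at 37.8, 5 and 5.1 CPM in the RYGB jejunum and at 546, 631, 531, 354 and 610 CPM in the RYGB ileum. The difference was −5.55 ± 0.53 (adjusted p = 0.00122), a 46.7-fold change that held in each omission. Its membrane partner amnionless (Amn) stood at 97.8, 63.3 and 84.3 CPM against 167, 189, 192, 125 and 253 CPM (−1.16 ± 0.23, adjusted p = 0.0261). The scaffold Pdzk1 differed by −0.73 ± 0.16 (adjusted p = 0.0449). All 5 genes tested of the B12 and endocytosis list had negative differences, 3 of them called (1.46% of all genes), with a median of −0.73. In sham all 5 were negative as well (median −0.40) and none was called. The call of Amn was met in 4 of the 8 omissions (differences from −1.29 to −0.98) and that of Pdzk1 in 1 (from −0.88 to −0.61). Both were lost without jejunum replicates 2 and 3 and ileum replicates 1 and 2, and Pdzk1 also without ileum replicates 3 to 5.

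Water channels and a replication factor were also higher in the ileum. Aqp1 stood at 1.9, 9.5 and 2.4 CPM in the jejunum and at 53.2, 31.4, 152, 47.2 and 134 CPM in the ileum (−3.91 ± 0.57, adjusted p = 0.00706). Aqp3, which also carries glycerol, stood at 16.8, 2.5 and 2.9 CPM against 46.3, 88.1, 45.1, 49.3 and 90.9 CPM (−3.31 ± 0.50, adjusted p = 0.00788). Of the 22 genes tested of the ion, acid-base and water list, these (1.46% of all genes) and Slc13a1 (1.58%) were called and 19 were not. Mcm2, a subunit of the replicative helicase, stood at 3.2, 0.8 and 2.4 CPM against 24, 41.3, 32, 23.8 and 52.5 CPM (−3.53 ± 0.34, adjusted p = 0.00122). It was the 1 called gene of 12 tested in the cell cycle and crypt list, whose median was −0.28, so no other replication or mitosis gene of the list passed. Susd2 stood at 99.4, 64.6 and 11.5 CPM against 606, 608, 785, 164 and 370 CPM. Its call (−3.36 ± 0.66, adjusted p = 0.0264) was met in 4 of the 8 omissions, being lost without jejunum replicate 2 or 3 or ileum replicate 1 or 2, with differences from −3.96 to −2.46.

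In fasting metabolism, Pdk4, which restrains glucose oxidation, ranged from 1.4 to 6 CPM against 18.9 to 52 CPM (−3.16 ± 0.43, adjusted p = 0.00515). The fatty acid transporter and acyl-CoA synthetase Slc27a2 stood at 45.5, 40.6 and 35.4 CPM against 148, 322, 140, 226 and 322 CPM (−2.40 ± 0.29, adjusted p = 0.00322). Retsat, a retinol saturase, differed by −1.85 ± 0.33 (adjusted p = 0.0175). Pck1, the gate to gluconeogenesis and glycerol synthesis, stood at 10, 8.8 and 2.3 CPM against 51.2, 166, 34.8, 39.2 and 107 CPM (−3.24 ± 0.55, adjusted p = 0.0136). Of 23 genes tested in a list of fatty acid oxidation and ketone bodies, also written after values were seen, 3 were higher in the ileum (1.46% of all genes) and Oxct1 alone in the jejunum. The list's median was −0.67. It held 2 genes higher in the ileum without jejunum replicate 2 or 3 and 6 without jejunum replicate 1 or ileum replicate 3. The call of Pck1 was lost without jejunum replicate 2 and that of Retsat without jejunum replicate 2 or 3, with differences of −3.56 to −2.69 and −2.06 to −1.65 over the 8 omissions.

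In protein digestion, all 20 genes tested of the peptide and amino acid list had negative differences, with a median of −0.65, and 7 of them were called (1.46% of all genes). In sham 19 of the 20 were negative with a median of −0.78, and 10 were called (4.4% of all genes), a count that fell to 0 without jejunum sham replicate 2, to 1 and 2 without ileum sham replicates 3 and 2, and to 5 and 6 without jejunum sham replicate 4 and ileum sham replicate 4. The brush border peptidases Mep1a and Xpnpep2 differed most. Mep1a (meprin) stood at 55.7, 54.9 and 66 CPM in the jejunum and at 275, 306, 553, 203 and 323 CPM in the ileum (−2.40 ± 0.27, adjusted p = 0.00215). Xpnpep2 stood at 98.2, 71.3 and 62.5 CPM against 388, 488, 675, 271 and 867 CPM (−2.69 ± 0.34, adjusted p = 0.00344). No jejunum library reached the lowest ileum library for either gene, and both calls held in each omission. The proline transporter gene Slc6a20a stood at 20.7, 25.1 and 13.9 CPM against 66.8, 152, 62.1, 107 and 262 CPM (−2.47 ± 0.43, adjusted p = 0.0144). The neutral amino acid transporter gene Slc6a19 (−1.09 ± 0.22), the proton-coupled transporter gene Slc36a1 (−0.88 ± 0.18), the intestinal peptide transporter gene Slc15a1 (−0.80 ± 0.19) and Ace (−0.91 ± 0.21) had smaller differences. Single libraries decided most of these smaller calls. Without jejunum replicate 2 the list held 2 calls, and over the omissions it held 2 to 5. Slc6a20a was lost without jejunum replicate 2 or 3, while Slc6a19, Slc36a1, Slc15a1 and Ace were met in 3, 4, 1 and 0 of the 8 omissions. Anpep (−1.02 ± 0.25, adjusted p = 0.0605) was not called.

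Of 22 genes tested of fat uptake and chylomicron assembly, 18 had negative differences. Fabp2 (−1.71 ± 0.38, adjusted p = 0.0414) and the sterol exporter gene Abcg8 (−0.95 ± 0.20, adjusted p = 0.0347) were called (1.46% of all genes), and the median was −0.39. Fabp2 was called in 1 and Abcg8 in 4 of the 8 omissions. Of 14 genes of sugar digestion and use, Lct and Pck1 were called, both higher in the ileum (1.46% of all genes). Of the 14 differences, 7 were negative and 7 positive. In the bile acid list, the basolateral exporter gene Slc51a stood at 296, 213 and 232 CPM in the jejunum and at 473, 644, 560, 427 and 521 CPM in the ileum (−1.08 ± 0.17, adjusted p = 0.0103). The nuclear repressor Nr0b2, a target of the bile acid receptor, stood at 1.4, 0 and 0.2 CPM against 6.8, 9.9, 2.5, 6 and 12.1 CPM (−2.44 ± 0.43, adjusted p = 0.016). The other 5 genes tested of that list were not called, and the median was −0.78. Slc51a lost its call without jejunum replicate 2 and Nr0b2 without jejunum replicate 2 or 3, with differences of −1.22 to −0.99 and −2.82 to −2.18 over the 8 omissions.

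Of 12 genes tested of iron, calcium and vitamin uptake, 3 were called, 2 higher in the jejunum (1.58% of all genes) and 1 in the ileum (1.46%). The thiamine transporter gene Slc19a3 stood at 36.8, 25 and 33.9 CPM in the jejunum and at 6.3, 5.7, 3.4, 4.4 and 1.4 CPM in the ileum (2.73 ± 0.35, adjusted p = 0.00377), and it held in each omission. Ferritin heavy chain Fth1 was higher (0.89 ± 0.21, adjusted p = 0.0498) and the zinc transporter gene Slc39a4 lower in the jejunum (−1.03 ± 0.23, adjusted p = 0.0414). These calls were met in 1 and 0 of the 8 omissions. Of 19 segment identity factors, Onecut2 was higher in the jejunum and Gata5 in the ileum (−1.60 ± 0.36, adjusted p = 0.0433), the latter in 2 of the 8 omissions. The other 17, Gata4 and Cdx2 (0.28 ± 0.31) among them, were not called.

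Among gut hormones, Pyy, the satiety peptide of distal L cells, stood at 1.6, 1 and 0.8 CPM in the jejunum and at 9.6, 11.5, 13.8, 7.1 and 8.4 CPM in the ileum (−2.36 ± 0.25, adjusted p = 0.00157). The groups were well apart, and the call held in each omission. Neurotensin (Nts) stood at 73.6, 26.2 and 22.2 CPM against 213, 187, 167, 110 and 67.2 CPM, with an overlap (−1.94 ± 0.44, adjusted p = 0.0457). Ghrelin (Ghrl), a proximal hormone, stood at 9.6, 7.3 and 11.2 CPM against 3.1, 2.6, 2.4, 6.2 and 2.1 CPM (1.33 ± 0.29, adjusted p = 0.0409). Cck, the proximal hormone of gallbladder contraction, stood at 20.9, 12.7 and 27.7 CPM against 3.7 to 9.8 CPM but was not called (1.38 ± 0.34, adjusted p = 0.0597). The calls of Nts and Ghrl were met in 2 and 1 of the 8 omissions. Of the 14 hormone and factor genes tested, the 11 other than Pyy, Nts and Ghrl were not called.

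Of 16 tested genes of Paneth cells and antimicrobial defence, 15 had a positive difference, the median was 1.00 and 4 were called (1.58% of all genes), Reg1, Reg3b, Reg4 and Mmp7. In sham 10 of the 16 were negative, with a median of −0.25. Reg3b, a bactericidal lectin, stood at 14804, 29660 and 26173 CPM in the jejunum and at 6134, 3378, 8850, 10923 and 5457 CPM in the ileum (1.81 ± 0.39, adjusted p = 0.0368). Reg4 stood at 43.8, 35.3 and 58.9 CPM against 8, 6.4, 8, 25.4 and 6 CPM (2.17 ± 0.41, adjusted p = 0.0205). Mmp7, the protease that activates Paneth cell defensins, stood at 13.1, 29.6 and 15.1 CPM against 2.8, 2.9, 3.2, 3.6 and 7.7 CPM (2.00 ± 0.34, adjusted p = 0.0136). Every jejunum library lay above every ileum library for these genes. Reg3g ran the same way without a call (1.47 ± 0.38, adjusted p = 0.0678). Without jejunum replicate 2, Reg1 was the 1 call left in the list and the median was 0.63. Reg3b was lost without jejunum replicate 2 or 3 or ileum replicate 1, 2 or 5 (1.58 to 2.12), Reg4 without any of the jejunum replicates (1.98 to 2.52) and Mmp7 without jejunum replicate 2 (1.66 to 2.22).

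Of 14 mucus and goblet cell genes, 2 were called, both higher in the ileum (1.46% of all genes). Guca2a, which encodes guanylin, stood at 113, 39.4 and 41.2 CPM in the jejunum and at 240, 274, 288, 220 and 406 CPM in the ileum (−2.27 ± 0.33, adjusted p = 0.00706). The membrane mucin Muc3 ranged from 506 to 603 CPM against 972 to 3001 CPM (−1.74 ± 0.34, adjusted p = 0.0262) and was lost without any of the jejunum replicates (−1.97 to −1.57). Of 33 xenobiotic enzymes, Ces1f was higher in the jejunum (1.58% of all genes) and Cyp2b10, Cyp2d26 and Ugt1a1 in the ileum (1.46%). These calls were met in 2, 2, 6 and 1 of the 8 omissions. The difference was 1.96 ± 0.42 for Ces1f and −1.21 ± 0.22 for Cyp2d26 (adjusted p = 0.0163). No xenobiotic gene was called without jejunum replicate 2 or 3, and the list's median was −0.29. In a list of 26 interferon-induced genes, written after values were seen, Ifit2 was called (2.58 ± 0.56, adjusted p = 0.0369), in 3 of the 8 omissions, and the median was 0.60.

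**Figure D3:**
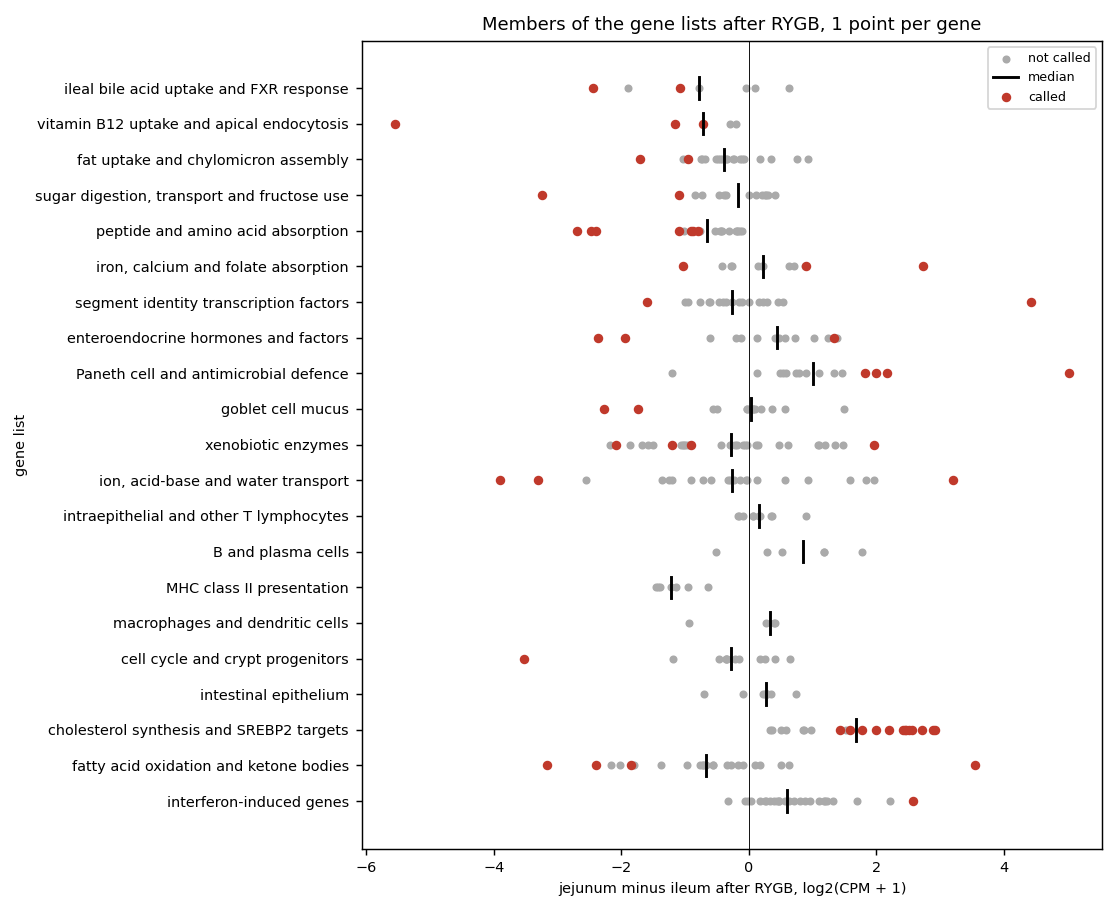
Differences between jejunum and ileum after RYGB for the members of 21 gene lists, 1 point per gene, with called genes in red and the median as a black bar. The cholesterol list lies wholly to the right of 0 (median 1.68) and the peptide and amino acid list wholly to the left (median −0.65). The last 3 lists were written after values were seen, and the others with earlier results of these data known.

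Which of these differences were also present without the bypass was read from the sham mice. In sham, 258 of 10561 genes tested were higher in the jejunum (2.44%) and 465 in the ileum (4.4%). With each library divided by its median ratio to the others, these were 391 and 360. Of the genes tested in both fits, 24 were called higher in the jejunum in sham and in RYGB, which was 9.41% of the 255 sham genes and 14.6% of the 164 RYGB genes. In the ileal direction 42 genes were called in both, 9.03% of the 465 sham genes and 27.6% of the 152 RYGB genes. The 2 comparisons use different libraries but the same pair of tables, so an offset between the tables would enter both. An offset between lanes would enter the sham comparison. If equal lane numbers mean the same run, it would enter the RYGB comparison through jejunum replicate 2 alone. Across 10370 genes the 2 sets of differences had a Pearson's r of 0.362 and a Spearman's rho of 0.426, given as a description since genes are not replicates. Of the sham genes, 202 of 255 in the jejunal and 389 of 465 in the ileal direction kept their sign after RYGB. Their median differences were 0.40 and −0.39 after RYGB against 0.90 and −0.76 in sham. The RYGB genes had medians of 1.31 and −1.42 after RYGB against 0.37 and −0.39 in sham. Each list was thus larger in the comparison that chose it, so these medians do not compare the surgeries. The counts of sham calls and of the overlap leaned on single libraries. Without jejunum sham replicate 2, the sham comparison held 10 and 48 genes and the overlap 2 and 13, and without jejunum RYGB replicate 2 the overlap was 4 and 20. It was 6 and 22 without ileum sham replicate 2 and 5 and 22 without ileum sham replicate 3. In the jejunal direction alone it fell by more than 1.5 times without jejunum RYGB replicate 1 (11), ileum RYGB replicates 1 (10) and 2 (11) and ileum sham replicates 1 (15) and 4 (12). The sham counts were also more than 1.5 times lower without ileum sham replicates 1 (126 and 305), 2 (57 and 194) and 3 (31 and 114), and without ileum sham replicate 4 for the jejunal direction (121).

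The largest regional differences were among those present in both. Plb1 stood at 0.2, 0.6, 4.1 and 0.1 CPM in the sham jejunum and at 439, 1212, 1563, 4238 and 26.2 CPM in the sham ileum, a difference of −8.43 ± 1.15 (adjusted p = 0.00855). Fam151a (−4.87 ± 0.60, adjusted p = 0.00615), Guca2a (−2.48 ± 0.34, adjusted p = 0.00855) and Pyy (−1.59 ± 0.25, adjusted p = 0.0114) were also lower in the sham jejunum in each of the 9 omissions. Onecut2 stood at 75.3, 138, 82.4 and 44.5 CPM in the sham jejunum and at 11.9, 9.2, 15.2, 6.2 and 26.9 CPM in the sham ileum (2.57 ± 0.38, adjusted p = 0.00998). It too held in each omission, and no sham jejunum library fell to the level of a sham ileum library. Reg1 was higher in the sham jejunum by 4.25 ± 0.79, Xpnpep2 lower by −2.21 ± 0.37 and Prss23 lower by −2.26 ± 0.38, each in 8 of the 9 omissions. Slc19a3, Fth1, Reg4, Ghrl, Ces1f and Insig1 were higher, and Mep1a, Slc15a1, Slc36a1, Aqp1 and Susd2 lower, in the jejunum of both surgeries. Single libraries decided many of the sham calls of these 11 genes. They were met in 3 of the 9 omissions for Ghrl, Ces1f and Insig1, in 4 for Slc36a1, in 6 for Slc19a3, Fth1, Reg4, Mep1a and Slc15a1, and in 7 for Aqp1 and Susd2. In the difference of differences, of these genes Aqp1 alone was called. For Plb1 the RYGB minus sham value was 0.28 ± 1.59 (adjusted p = 0.99), with an SE larger than the value.

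**Figure D4:**
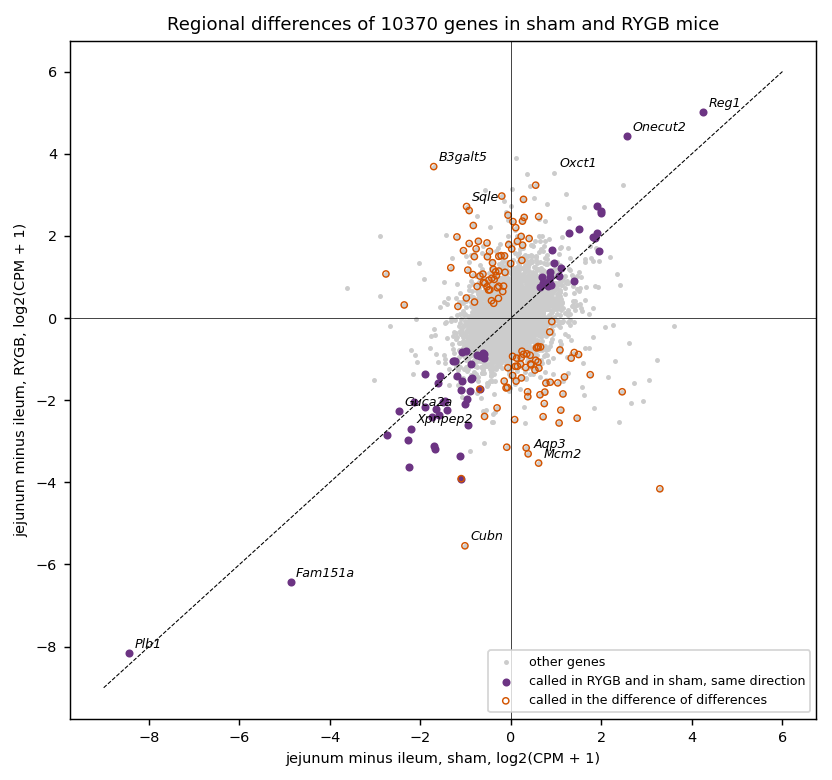
Jejunum minus ileum in RYGB (vertical axis) against sham (horizontal axis) on the log2(CPM + 1) scale for 10370 genes. Purple points are called in both with the same sign and run from Plb1 (−8.16 and −8.43) to Reg1 (5.02 and 4.25); orange rings are the genes whose difference itself differed between the surgeries, and the dashed line marks equal differences.

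Whether a regional difference itself differed between the surgeries was tested in 1 model with the 17 libraries, as the difference in RYGB minus that in sham. Here a constant offset between the tables cancels. Of 10576 genes tested, 65 (0.615%) shifted towards the jejunum and 64 (0.605%) towards the ileum after RYGB. In the ileum, surgery and sequencing lane cannot be told apart, since all RYGB libraries were on lane 1 and all sham libraries on lanes 2 and 3. The counts fell to 2 and 9 without jejunum RYGB replicate 3 and to 7 and 15 without jejunum RYGB replicate 2, and rose to 167 and 165 without jejunum RYGB replicate 1. Without each of jejunum sham replicates 3 and 4, ileum RYGB replicates 1, 2 and 5 and ileum sham replicates 1 to 4, between 16 and 37 genes were called in each direction. In the ileal direction alone, 36 genes were called without jejunum sham replicate 2, 105 without ileum RYGB replicate 3 and 100 without ileum sham replicate 5. Of the 164 and 152 genes called after RYGB, 36 and 46 were called here in the same direction. Of the sham genes, 12 of the jejunal and 12 of the ileal direction were called here with a shift against their sham difference.

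Towards the ileum, Cubn shifted by −4.53 ± 0.65 (adjusted p = 0.00411). It stood at 893, 342, 864 and 422 CPM in the sham jejunum and at 1029, 1273, 806, 1687 and 1232 CPM in the sham ileum, where the segments overlapped. The RYGB jejunum libraries, at 5 to 37.8 CPM, were below all others. Mcm2 shifted by −4.14 ± 0.57 (adjusted p = 0.00411), with 20.9, 19, 31 and 17.4 CPM in the sham jejunum and 17, 17.5, 21.4, 3.9 and 18.1 CPM in the sham ileum. Aqp3 shifted by −3.69 ± 0.57 (adjusted p = 0.00576) and ranged from 46.1 to 111 CPM in the sham libraries of either segment. Cubn, Mcm2, Aqp3, Nr0b2 and Slc27a2 were called in each of the 17 omissions.

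Nr0b2 shifted by −3.90 ± 0.63 (adjusted p = 0.00825). In sham it was higher in the jejunum (1.46 ± 0.38, adjusted p = 0.0383, met in 3 of the 9 omissions), and after RYGB in the ileum. Slc27a2 shifted by −3.11 ± 0.48 (adjusted p = 0.00576), with 225, 337, 330 and 428 CPM in the sham jejunum. Pdk4 (−3.50 ± 0.59, adjusted p = 0.0094) and Retsat (−2.999 ± 0.50, adjusted p = 0.0094) were called in 16 of the 17 omissions. Acot1, an acyl-CoA thioesterase (−4.25 ± 0.92, adjusted p = 0.0353), and Cntnap1 (−3.62 ± 0.84, adjusted p = 0.0443) were called in 7 and 4. Of the 23 genes of fatty acid oxidation and ketone bodies, 7 shifted towards the ileum (0.605% of all genes) and none towards the jejunum. That count of 7 ran from 1 without jejunum RYGB replicate 3 to 11 without jejunum sham replicate 1, and was 3 in 9 of the 17 omissions. All 23 had a positive difference in sham (median 0.67), and 18 a negative one after RYGB. The sham level of Acot1 was highest in jejunum sham replicates 2 and 4 (1.7, 32.8, 2 and 13.6 CPM). Its difference between the RYGB segments was not called (−1.80, adjusted p = 0.062). Slc6a20a (−2.56 ± 0.52) and Aqp1 (−2.81 ± 0.64) were called in 11 and 6 of the 17 omissions.

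Among xenobiotic enzymes 32 of 33 were higher in the sham jejunum by sign, 13 of them called (2.44% of all genes), whereas 10 of 33 were higher in the RYGB jejunum. The sham count leaned on single libraries, with 1 call without jejunum sham replicate 2, none without ileum sham replicate 3, and 4 to 6 without jejunum sham replicate 4 or ileum sham replicate 1, 2 or 4, while 32 or 33 of the signs stayed positive in each omission. The median shift was −1.27 against 0.04 for all genes. Of these enzymes 2 passed the test of the shift, Cyp2b10 (−2.82 ± 0.60, adjusted p = 0.032) and Cyp2d26 (−1.53 ± 0.34, adjusted p = 0.0408), in 6 and 5 of the 17 omissions. Cyp3a11, a drug-metabolising P450, stood at 572, 84.8 and 111 CPM in the RYGB jejunum and at 994, 2100, 766 and 1700 CPM in the sham jejunum. Its shift of −3.25 ± 0.81 (adjusted p = 0.059) was not called.

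Towards the jejunum, B3galt5, a galactosyltransferase of glycan chains, shifted most, by 5.39 ± 1.12 (adjusted p = 0.0313). It stood at 51.7, 247 and 184 CPM in the RYGB jejunum, 7, 7.4, 8.5 and 3.2 CPM in the sham jejunum, 8, 2.3, 51.1, 26.4 and 1.9 CPM in the RYGB ileum and 10.9, 32.1, 41.2, 46.8 and 8 CPM in the sham ileum. The RYGB jejunum was above every other library, while the ileum of both surgeries spread widely. Sqle shifted by 3.69 ± 0.63 (adjusted p = 0.0094), with 4.4, 26.5, 6.5 and 6.1 CPM in the sham jejunum. Tgm2, a transglutaminase, stood at 347, 633 and 710 CPM in the RYGB jejunum against 83.1, 51.6, 52.2 and 54.9 CPM in the sham jejunum (3.17 ± 0.59, adjusted p = 0.0167). Chst4, a sulfotransferase of mucin glycans, shifted by 3.08 ± 0.55 (adjusted p = 0.0129). Sqle was called in 16 and Tgm2 and Chst4 in 15 of the 17 omissions. Reg3b shifted by 2.73 ± 0.59 (adjusted p = 0.0358) and ranged from 4707 to 11318 CPM in the sham jejunum and from 8111 to 26130 CPM in the sham ileum, which overlapped.

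The calcium-activated chloride channel regulator genes Clca3a2 (3.84 ± 0.89) and Clca3b (3.54 ± 0.82), together with Gml2 (3.17 ± 0.75), Tspan12 (2.69 ± 0.63) and Muc4 (2.30 ± 0.55), were called in 3 or 4 of the 17 omissions. B3galt5 was called in 9, Reg3b in 6 and the neuropeptide gene Tac1 (1.71 ± 0.35) in 11. Between the RYGB segments themselves, B3galt5 (3.69, adjusted p = 0.0645), Clca3b (2.62, 0.0568), Muc4 (1.49, 0.1085), Tac1 (1.02, 0.0755) and Clca3a2 (1.07, 0.4115) were not called. In sham, Clca3a2 (−2.76, adjusted p = 0.0181) and B3galt5 (−1.71, adjusted p = 0.0467) were called lower in the jejunum. Of the 22 cholesterol genes tested, 6 shifted towards the jejunum (0.615% of all genes), and all 22 shifts were positive with a median of 1.46. That count of 6 ran from 0 without jejunum RYGB replicate 3 to 12 without jejunum sham replicate 2, and was 2 in 8 of the 17 omissions. Besides Sqle and Pmvk the 6 genes were Fdft1 (2.61 ± 0.57), Mvd (2.57 ± 0.56), Hmgcs1 (2.16 ± 0.47) and Msmo1 (1.86 ± 0.35), called in 7, 7, 7 and 15 of the 17 omissions. In sham 1 gene of this list, Insig1, was called between the segments (1.98 ± 0.54, adjusted p = 0.0417, met in 3 of the 9 omissions).

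A regional order that was called in opposite directions in the 2 surgeries was found for 6 genes, which were named after their values were seen. Nr0b2, Retsat, Homer3 and the predicted gene Gm11752 were higher in the jejunum in sham and in the ileum after RYGB. Tgm2 and Wtip were higher in the ileum in sham and in the jejunum after RYGB. Single libraries ended many of these calls. Those after RYGB were met in 6 of the 8 omissions for Nr0b2, Retsat and Homer3, 7 for Gm11752, 4 for Wtip and 2 for Tgm2. Those in sham were met in 3 of the 9 omissions for Nr0b2, Retsat, Gm11752 and Tgm2, 2 for Homer3 and 6 for Wtip. For all 6 the difference between the surgeries was called as well, in 15 of the 17 omissions for Tgm2, 16 for Retsat and 17 for the other 4. It is formed from the same 2 differences in the same libraries, by which these genes were chosen. Its calls therefore add no support to the opposite order.

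**Figure D5:**
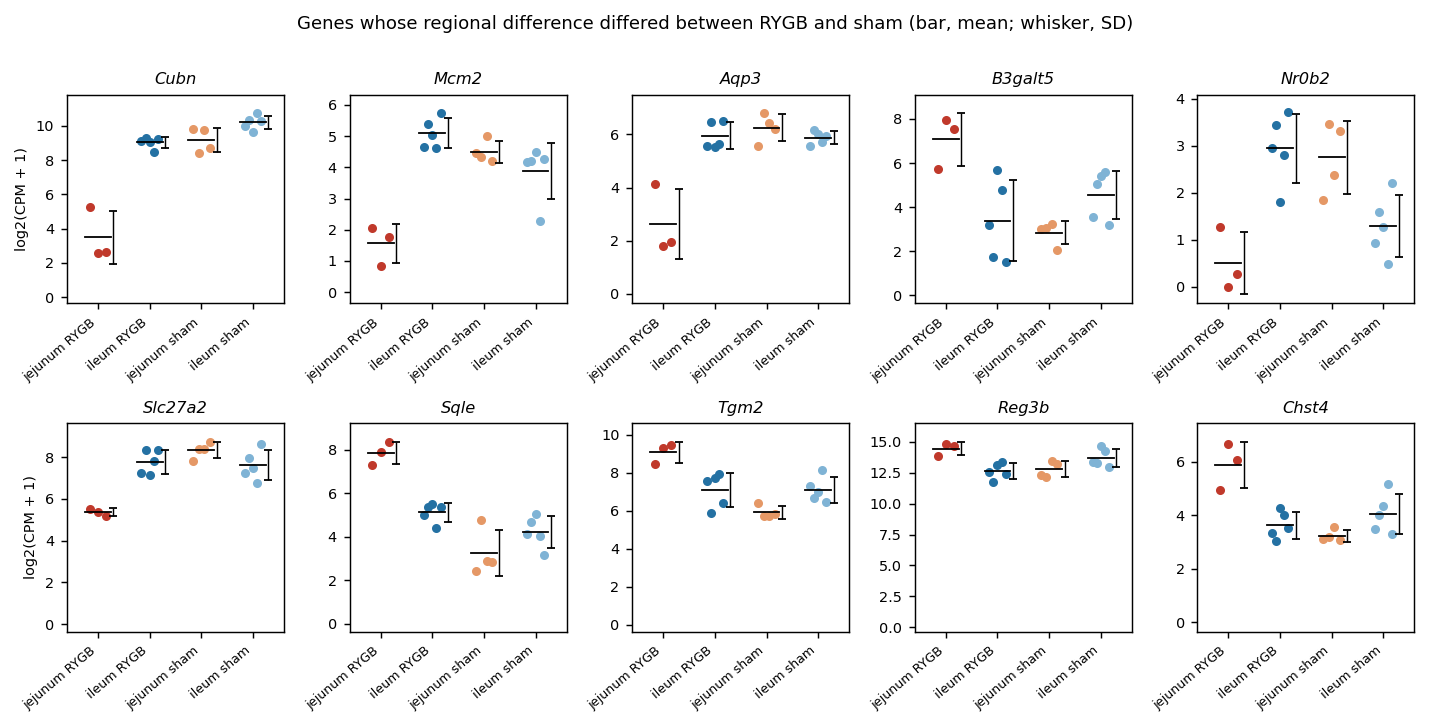
Levels of 10 genes whose regional difference differed between RYGB and sham, as log2(CPM + 1) with 1 point per library, a bar at the mean and a whisker of 1 SD for the 4 groups. For Cubn, Mcm2, Aqp3 and Slc27a2 the 3 RYGB jejunum libraries lie below those of the other 3 groups, and for Sqle and Tgm2 they lie above them.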

How the data were processed

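The authors deposited 1 table per tissue with 1 value per gene and library. Per the labels, reads were assigned to genes with HTSeq on GRCm38 (versions not given in the sources used here) from stranded mRNA libraries. The values are CPM of each library, rounded to 0.1 by the authors; the unit was settled from the values, which summed to between 997791 and 998669 with 1 line kept per gene. Lines repeating a gene (359 in jejunum, 326 in ileum) held equal values. Each listed gene reached 1 CPM in at least 3 jejunum or 5 ileum libraries, so genes of 1 table only (436 and 192) were not compared. Symbols were taken from Ensembl IDs (10512 of 10585 matched).

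Jejunum was compared with ileum by limma 3.58.1 (R 4.3.3, empirical Bayes with trend, two-sided) on log2(CPM + 1) after removing genes averaging below 1 CPM. A count model was not used, since depth is unknown. Named genes were the 10 called genes with the largest difference in each direction whose groups did not overlap, the 8 with the largest shift in each direction, and list members. Predicted genes were counted but not named, except where said. Members and lists were chosen with earlier results of these data known. Some genes that met these rules are not reported here and were left out of the lists. Replicate numbers did not pair the segments after RYGB, and no fit used the pairs given by the library numbers. The tables of the other tissues were not used here. The fits were tested on simulated data.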

Additional observations from a re-analysis of the deposited data

Results flagged for a closer look

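Each group of 4 or 5 libraries was searched, for every named gene, for a library far from the others of its group. Of 225 gene and group pairs 14 held one, and chance alone marks about 1 in 20 groups. In jejunum sham replicate 2, Cyp51 (115.2 CPM, others 9.4 to 14), Hmgcs1 (176.2 CPM, others 63.7 to 67.3), Oxct1 (142.3 CPM, others 37.6 to 47.2) and Slc19a3 (40.5 CPM, others 8.6 to 10.2) stood above the other 3 libraries. In jejunum sham replicate 1, Cyp2b10 was low (274.1 CPM, others 568.7 to 611.9) and Tgm2 high (83.1 CPM, others 51.6 to 54.9). In the RYGB ileum, Abcg8 stood at 838.4 CPM in replicate 1 (others 501.7 to 548.4) and Slc39a4 at 355.7 CPM in replicate 2 (others 213.5 to 241.6). Reg4 stood there at 25.4 CPM in replicate 4 (others 6 to 8) and Mmp7 at 7.7 CPM in replicate 5 (others 2.8 to 3.6). In the sham ileum, Muc4 stood at 147.3 CPM in replicate 3 (others 79 to 91.4) and Muc3 at 5839.7 CPM in replicate 4 (others 1428.2 to 2133.1). Mcm2 was low there in replicate 4 (3.9 CPM, others 17 to 21.4), and Abcg8 was high in replicate 5 (939.6 CPM, others 640.6 to 687.8).

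For 28 named genes the regional difference itself differed between RYGB and sham in the limma test over 17 libraries. On the log2 scale, RYGB minus sham was positive for B3galt5 (5.39), Clca3a2 (3.84), Sqle (3.69), Clca3b (3.54), Gml2 (3.17), Tgm2 (3.17), Chst4 (3.08), Reg3b (2.73), Tspan12 (2.69), Fdft1 (2.61), Mvd (2.57), Muc4 (2.30), Hmgcs1 (2.16), Msmo1 (1.86) and Tac1 (1.71). It was negative for Cubn (−4.53), Acot1 (−4.25), Mcm2 (−4.14), Nr0b2 (−3.90), Aqp3 (−3.69), Cntnap1 (−3.62), Pdk4 (−3.50), Slc27a2 (−3.11), Retsat (−2.999), Cyp2b10 (−2.82), Aqp1 (−2.81), Slc6a20a (−2.56) and Cyp2d26 (−1.53). Of these, Cubn, Mcm2, Nr0b2, Aqp3 and Slc27a2 were called in each of the 17 fits that left out 1 library.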

How the results depend on the processing

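The number of genes called after RYGB (164 higher in the jejunum, 152 in the ileum) rose to 391 and 322 when all 4 groups shared 1 estimate of the spread, and to 354 and 299 with array weights. It lay between 37 and 185 and between 40 and 176 when single libraries were left out, the lowest being without the jejunum library of lane 2 (37 and 40), an omission chosen after seeing the data. The sham counts (258 and 465) lay between 10 and 352 and between 48 and 575, and median-ratio scaling gave 391 in the jejunal direction. The counts for the difference between the surgeries (65 and 64) lay between 2 and 167 and between 9 and 165. They were 7 and 15 without the library of lane 2, and 42 genes shifted towards the jejunum with a mean of at least 10 CPM. The overlap of sham and RYGB calls (24 and 42) lay between 2 and 33 and between 13 and 46, which was also tried after seeing the data. Each cause was not tested, beyond the fewer genes or libraries in a fit.

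No named gene that was called changed its sign. Of 61 genes named and called after RYGB, 537 of 606 values under settings other than omitting each library in turn kept the call. When each library was omitted in turn, 150 of 488 values lost it. For 28 genes of the difference between the surgeries these were 184 of 219 and 193 of 476. The 606 and 219 values include the fit without the jejunum library left out after seeing the data. That fit is counted among the omissions in turn as well. The counts therefore do not separate the processing from the loss of a library.

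Replicate numbers did not pair the segments after RYGB. The deviations of same-numbered libraries had correlations of 0.283, −0.245 and −0.363 after RYGB and 0.428, 0.347, 0.539 and −0.201 in sham. Jejunum RYGB replicates 1, 2 and 3 correlated most with ileum RYGB replicates 2, 3 and 4 (0.493, 0.475 and 0.534). Jejunum sham replicate 4 correlated most with ileum sham replicate 5 (0.343), and jejunum sham replicates 1 to 3 with their own number. The library numbers of these pairs lie an equal step apart, such as 18 and 810 or 24 and 816. No fit used these pairs. With the replicate number as a block, 143 and 115 genes were called after RYGB, 271 and 382 in sham and 67 and 83 in the difference. After RYGB this block joined other libraries than those pairs, so it does not test a pairing by library number. Depth is unknown, and values under about 1 CPM rest on a rounding step of 0.1.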
